A study of Mus musculus with 21 samples.

Results

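The effect of a Jak1 knock-in (KI) allele was compared between the brain and the liver of the same newborn mice. Of the 21 libraries of the series, 14 were used: those titled Brain KI (2), Brain WT (5), Liver KI (2) and Liver WT (5). They were chosen by their titles and not by any measured value. The animals were labelled C57BL/6 (C57BL/6J in the study's methods) and taken at postnatal day 0. The 2 KI mice carried the allele labelled Jak1 KI +/-, a heterozygous missense change of a histidine codon of Jak1 together with silent changes in the 2 codons that follow, and the 5 WT mice were wild type. No group received a treatment. The KI animals descended from a mosaic founder male, and the titles give no litter or sex. A brain and a liver library that share both genotype and number in their titles were treated as 1 mouse, so that each mouse gave a brain value, a liver value and a difference between them.

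JAK1 is a tyrosine kinase bound to the inside tail of many cytokine receptors, among them the receptors of the interferons, of the interleukin 6 family and of the interleukins that share the common gamma chain. When a cytokine binds, the JAKs phosphorylate STAT transcription factors, which enter the nucleus and switch on target genes, including the SOCS genes whose products shut the pathway down again. In the liver this pathway is best known for the acute-phase response, in which hepatocytes answer interleukin 6 through STAT3. In the brain it serves glial and neuronal responses to cytokines. The kinase domain is held back by the neighbouring pseudokinase domain, in which the edited codon lies.

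The edited codon lies in exon 13 of the 25 exons of the Jak1 transcript used, on the minus strand of mouse chromosome 4 (build NCBIM37, chr4:100837153-100837197). The reference sequence around it is shown because it is the only genetic difference the groups are labelled for. Capitals mark the edited codon as it is in wild type, a histidine codon:
Jak1 exon 13, coding strand: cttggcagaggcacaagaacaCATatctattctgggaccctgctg

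No change in the level of Jak1 itself was called in either tissue. Jak1 stood at 188 and 183 CPM (counts scaled to the size of the library) in the KI brains, and at 160, 179, 186, 161 and 114 CPM in the WT brains. In the liver it stood at 196 and 208 CPM in the KI mice and at 168, 164, 168, 173 and 147 CPM in the WT mice. The KI livers were thus above all WT livers, while 1 WT brain lay among the KI brains. The fitted KI effect, KI minus WT on the log2 scale, was 0.21 ± 0.18 (SE) in the brain and 0.30 ± 0.09 in the liver, with adjusted p = 0.72 and 0.13. The difference between these effects was 0.07 ± 0.18 (adjusted p = 0.87). Gene counts do not separate the edited from the wild-type transcript, so these levels do not check which mice carry the allele. Adjusted p-values here are from edgeR's quasi-likelihood test with Benjamini-Hochberg adjustment over all genes tested, and a gene was called when its adjusted p was under 0.1.

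Each library held between 26549326 and 38388133 counts on genes. Hepatocyte markers summed to at least 221700 CPM in every liver library and neuronal markers to at least 9108 CPM in every brain library. Expression of Y-linked genes marked KI mouse 2 and WT mouse 3 as male in both of their tissues, so the brain and the liver library of each mouse carried the same sex. The WT brains differed in markers of neighbouring tissue. Choroid plexus markers summed to between 62.95 and 2660 CPM over the 5 WT brains and to 977.5 and 1070 CPM in the KI brains. Fibroblast and meningeal markers summed to between 210.4 and 2002 CPM in the WT brains. Both KI brains lay below every WT brain in summed neuronal markers, at 9108 and 9941 CPM against 10260 to 10430 CPM. The same held for astrocyte and radial glia markers, at 3184 and 3227 CPM against 4008 to 6361 CPM. Gene by gene, the median brain effects of these lists were -0.05 and 0.05, so the lower sums were not a shift of the lists as a whole. Sums of oligodendrocyte and microglial markers lay within the WT range. In these bulk samples fewer cells of a type and less RNA per cell cannot be told apart.

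By edgeR, KI effects were called in the liver and not in the brain. In the brain, no gene of 16322 tested was called (0.0%), while 457 genes (2.8%) had higher and 1275 (7.81%) had lower values with a p under 0.05 before adjustment. DESeq2's Wald test called 604 brain genes, 80 higher and 524 lower, and leaving out WT mouse 5 gave 1698 calls by edgeR. In the liver, 582 genes were called higher (3.89%) and 251 lower (1.68%) of 14966 tested, 5.57% together. The test of the difference itself, liver effect minus brain effect with the mouse as a block, could be made for 13892 genes expressed in both tissues. It called 198 of them (1.43%). The liver effect was above the brain effect in 154 (1.11%) and below it in 44 (0.317%).

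Among the 198 called genes, the tissues most often pulled apart through a low level in the KI brain. A called gene was counted as opposite when its effects had different signs and an unadjusted p under 0.05 in each tissue. It was counted as brain-sided or liver-sided when that p was under 0.05 in that tissue alone. These p-values only sorted the genes. There were 46 opposite genes lower in the KI brain and higher in the KI liver (0.331% of the genes tested) and 13 with the reverse pattern (0.0936%). Another 77 were brain-sided and lower in the KI brain, and 3 were brain-sided and higher there. In the brain, 3 of the 46 and 4 of the 77 passed the filter on low counts through the WT libraries alone. For these a lower value in the KI brain was built in. The liver-sided genes numbered 31 higher and 26 lower in the KI liver. The remaining 2, named here after their values were seen, were Cd5l, a macrophage gene with higher values in both KI tissues, and Efnb3, an ephrin ligand that reached the unadjusted level in neither. In the brain Cd5l passed the filter on low counts through the KI libraries alone, so a higher value there was built in. Over all 13892 genes the effects in the brain and the liver were almost unrelated (Pearson's r = -0.08, Spearman's rho = -0.15, a description across genes, which are not independent).

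**Figure D1:**
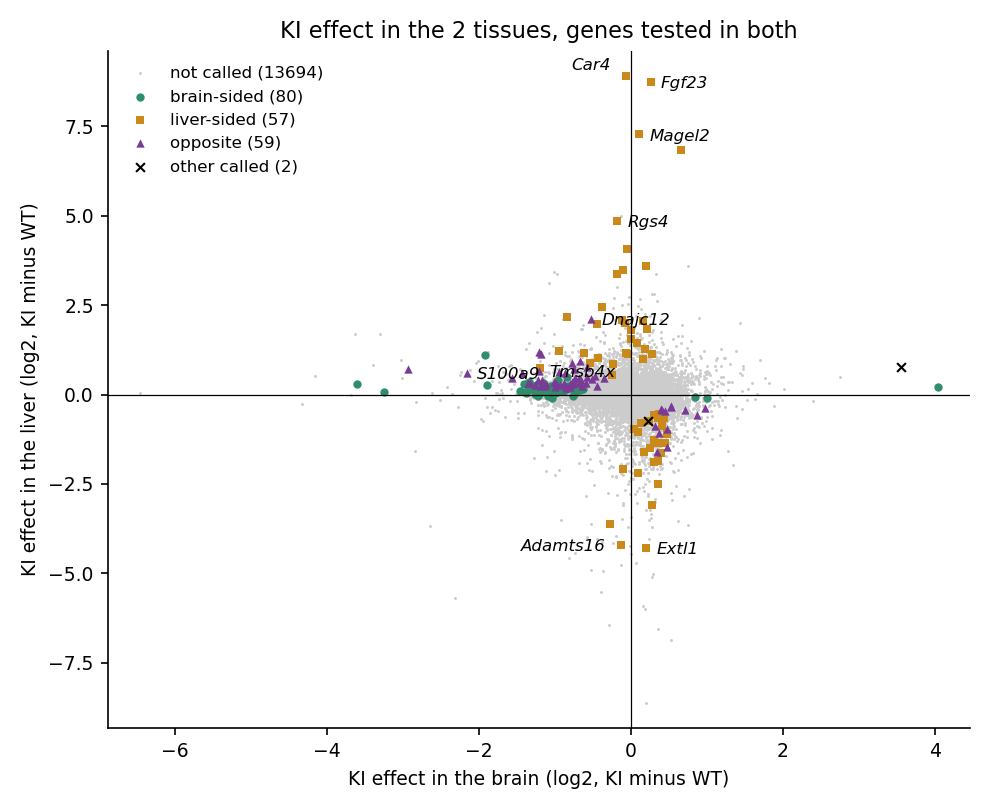
KI effect in the brain (x axis) against KI effect in the liver (y axis), both as log2 KI minus WT, for the 13892 genes tested in both tissues; coloured symbols are the 198 genes whose effects differed between the tissues. The 77 brain-sided genes lower in the KI brain and the 46 opposite genes form a band on the left close to the horizontal axis, and the liver-sided genes lie along the vertical axis with Fgf23, Car4 and Magel2 at the top.

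The number of calls rested on few animals. With either KI mouse left out no difference was called, and leaving out WT mouse 1, 2 or 4 left between 4 and 10 calls. Without WT mouse 5 there were 1459 calls, and all 198 genes were among them. With a trend with gene length taken out of each library there were 13. Of the 39 named genes reported here that were called, all kept their direction in each of the 20 alternatives tried, whatever their p. This was largely built in. In all 198 called genes both KI mice lay outside the WT range of the liver minus brain difference, so leaving out a mouse could hardly change a sign. Car4, Fgf23 and Rgs4 were called in 18 of the 20, and were lost only when a KI mouse was left out. For Car4 this is a description only, since it passed the filter in the liver through the KI libraries alone.

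Among the liver-sided genes were several that were almost silent in WT livers and expressed in KI livers. Fgf23, a hormone normally made by bone that lowers blood phosphate, stood at 187 and 147 CPM in the KI livers. The WT livers held 0.0867, 0.306, 0.887, 0.377 and 0.331 CPM of it. All 7 brains lay close together, the KI brains at 1.39 and 1.22 CPM and the WT brains between 0.566 and 2.11 CPM. The liver effect was 8.75 ± 0.35 (adjusted p = 1.01e-05), the brain effect was 0.26 ± 0.51, and the difference was 8.48 ± 0.72 (adjusted p = 0.00946). The gene lies on chromosome 6 from 127022920 to 127031426 (NCBIM37, plus strand).

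Car4, a membrane-bound carbonic anhydrase, followed the same course. The KI livers held 677 and 597 counts of Car4 and the WT livers 0, 0, 0, 1 and 5. In the brain the KI mice stood at 5.58 and 5.4 CPM and the WT mice at 4.58 to 7.94 CPM, so the brains overlapped. The fitted difference was 9.08 ± 0.82 (adjusted p = 0.0104), a value that depends on the prior count because most WT livers were at 0. Magel2, an imprinted gene of the Prader-Willi region, gave 116 and 294 counts in the KI livers and 0, 6, 0, 0 and 0 in the WT livers, against 40.8 to 77.5 CPM in every brain (difference adjusted p = 0.0376). Both genes passed the filter on low counts in the liver through the KI libraries alone, as did 5 of the 31 liver-sided genes higher in the KI liver, so a difference in the liver was built into their entry to the test and their values are a description.

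Other genes of this kind, such as Rgs4 and Tubb3, are known chiefly from neurons. Rgs4, which dampens G-protein signalling, was at 22.8 and 15.3 CPM in the KI livers and at 0.301 to 1.57 CPM in the WT livers, while every brain held 111 to 212 CPM. Its difference was 5.13 ± 0.49 (adjusted p = 0.0112). Tubb3, the neuronal beta-tubulin, was at 3.8 and 2.9 CPM in the KI livers and at 0.0578 to 0.587 CPM in the WT livers (difference 3.6 ± 0.52, adjusted p = 0.0913). Rtl1, an imprinted gene derived from a retrotransposon, was at 3.58 and 8.30 CPM against 0.0867 to 0.722 CPM (difference 4.09 ± 0.73, adjusted p = 0.0966). The other neuronal markers showed no such rise. Over the 14 neuronal markers the summed level was 11.42 to 14.35 CPM in the KI livers and 11.18 to 15.91 CPM in the WT livers, with Slc17a7 and Slc17a6 at 0 in all livers, and Stmn2 was called lower in the KI liver (-4.14 ± 1.12, adjusted p = 0.0944).

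The liver-sided genes with lower values in the KI mice that are named here, picked for the largest differences, were also of low abundance. Gja5, the vascular gap junction protein connexin 40, was at 0.560 and 0.455 CPM in the KI livers and at 6.70, 8.80, 7.23, 7.22 and 1.53 CPM in the WT livers, so that no WT liver reached down to the KI values. Its difference was -3.25 ± 0.69 (adjusted p = 0.0966). The transcription factor Mecom was at 0.685 and 0.966 CPM in the KI livers and at 1.38 to 4.92 CPM in the WT livers (difference -2.22 ± 0.42, adjusted p = 0.0966). Adamts16, a secreted metalloproteinase, and Extl1, a heparan sulphate glycosyltransferase, gave differences of -4.08 ± 0.81 and -4.43 ± 0.90 (both adjusted p = 0.0966). These last 2 passed the filter in the liver through the WT libraries alone, as did 6 of the 26 liver-sided genes lower in the KI liver. In both Gja5 and Mecom the lowest WT liver was that of WT mouse 5. Among the markers of other liver cells, bile duct markers summed to 59.79 and 63.36 CPM in the KI livers and to 108.7 to 213.9 CPM in the WT livers. Fibroblast markers summed to 563.8 and 604 CPM against 567.4 to 1172 CPM, and erythroid markers to 2907 and 2997 CPM against 3408 to 4715 CPM. Endothelial markers leaned the other way but overlapped, at 400.7 and 493.3 CPM against 157.5 to 420.5 CPM. Their mean deviation from the WT mean was 0.30 and 0.54 in the KI livers. It was 0.08 to 0.42 in WT livers 1 to 4 and -1.06 in WT liver 5. The part of these cells in the lower values was not tested.

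S100a9, a calcium-binding protein of neutrophils, was among the genes with opposite effects. It was at 2343 and 2823 CPM in the KI livers and at 1432 to 1935 CPM in the WT livers. In the brain it was at 0.753 and 0.290 CPM in the KI mice and at 1.04 to 3.39 CPM in the WT mice. The KI mice were thus outside the WT range in both tissues and on opposite sides (brain -2.16 ± 0.60, liver 0.61 ± 0.13, difference 2.73 ± 0.59, adjusted p = 0.098). In the brain S100a9 passed the filter through the WT libraries alone. A lower KI value there was thus built into its entry to the test, and its brain side is a description. The neutrophil markers, a list that includes S100a9 and so is not independent of it, stood higher in the KI liver. Their summed level was 6678 and 7922 CPM in the KI livers against 4179 to 5497 CPM in the WT livers, and 5 of 11 were called higher in the KI liver (3.89% of all genes). In the brain the sum was 23.34 and 23.37 CPM in the KI mice and 19.8 to 30.13 CPM in the WT mice, with Ngp, another neutrophil granule gene, also called for the difference (3.89 on the log2 scale, adjusted p = 0.0966) and likewise tested in the brain through the WT libraries alone.

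Dnajc12, a co-chaperone of the aromatic amino acid hydroxylases, had the smallest p among the opposite genes. Its level was 38.7 and 56.8 CPM in the KI livers and 12.5, 9.70, 9.72, 10.6 and 12.4 CPM in the WT livers. In the KI brains it was 17.0 and 14.7 CPM, below the WT brains at 24.2, 28.2, 22.9, 19.4 and 19.1 CPM. The liver effect of 2.12 ± 0.16 was itself called (adjusted p = 0.00051), the brain effect of -0.52 ± 0.20 was not (adjusted p = 0.43), and the difference was 2.61 ± 0.32 (adjusted p = 0.0432), or 2.14 with the gene-length trend taken out (adjusted p = 0.14). The gene spans 62845191 to 62871588 of chromosome 10 (NCBIM37, plus strand).

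Tmsb4x, thymosin beta 4, which binds actin monomers, was abundant in both tissues. The KI brains held 1380 and 1235 CPM and the WT brains 3368, 2823, 2293, 2210 and 4416 CPM. The KI livers held 1131 and 1076 CPM and the WT livers 726, 726, 806, 608 and 633 CPM. The brain groups and the liver groups did not overlap, and the order of the groups was reversed between the tissues (difference 1.83 ± 0.33, adjusted p = 0.0966). With the gene-length trend taken out its difference was 1.1 (adjusted p = 0.14). BC048546, a gene with homology to alpha-2-macroglobulin, gave a difference of 2.36 ± 0.36 and the small nucleolar RNA Snord104 one of 1.98 ± 0.41, both with adjusted p = 0.0966.

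The 13 genes that were higher in the KI brain and lower in the KI liver included Wnk2, a kinase that regulates ion transport. It was at 170 and 171 CPM in the KI brains against 107 to 138 CPM in the WT brains, and at 1.03 and 0.824 CPM in the KI livers against 1.54 to 3.77 CPM in the WT livers (difference -1.91 ± 0.34). Slc16a10, a carrier of aromatic amino acids, showed the pattern where the liver was the tissue of higher expression. Its level was 60.9 and 66.1 CPM in the KI livers and 67.1 to 99.8 CPM in the WT livers, and 3.76 and 3.8 CPM in the KI brains against 1.36 to 2.33 CPM in the WT brains (difference -1.36 ± 0.23). Phyhip, Igsf3, Lrp3 and the neural transcription factor Sox4 gave differences between -1.44 and -1.18. All of these had an adjusted p of 0.0966, and with the exception of Slc16a10 all were more abundant in the brain. The brain-sided genes with higher values in the KI brain were Marco, a macrophage scavenger receptor, Loxl2, which cross-links collagen (difference -1.08 ± 0.22), and Abca8a, a lipid transporter (difference -0.89 ± 0.19). Marco passed the filter in the brain through the KI libraries alone, so its higher value there was built into its entry to the test.

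**Figure D2:**
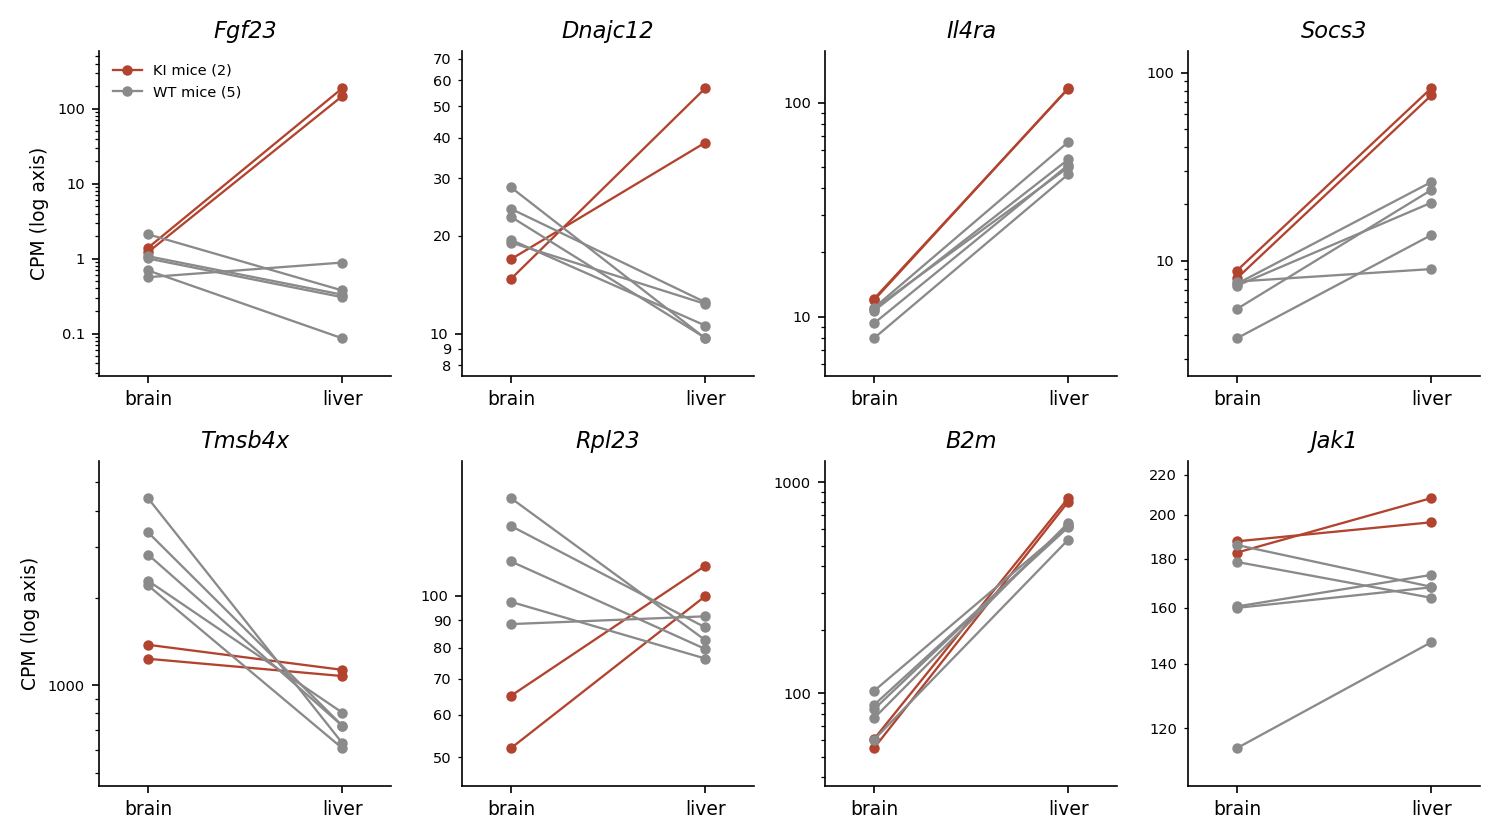
CPM (log axis) of 8 genes in the brain and the liver of each mouse, with a line joining the tissues of 1 mouse; red, the 2 KI mice, and grey, the 5 WT mice. The KI lines of Fgf23, Dnajc12, Il4ra and Socs3 end above all WT lines in the liver, those of Tmsb4x and Rpl23 cross from below all WT brains to above all WT livers, and those of B2m and Jak1 stay closer to the WT lines.

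The 9 housekeeping lists had medians below 0 in the KI brain, while no gene was called there. The median effect ran from -0.85 to -0.32 in 8 of them and was -0.07 for the aminoacyl-tRNA synthetases. With the gene-length trend of each library taken out, the 8 medians ran from -0.25 to -0.18. The subunits of the mitochondrial respiratory chain and ATP synthase had a median KI effect of -0.82 in the brain and -0.09 in the liver, and all 75 tested had a negative effect in the brain, against 53.0% of all 13892 genes. In 64 of them both KI brains lay below every WT brain, against 17.3% of all genes. The difference was called for 13 of the 75, all with the liver above the brain (background 1.11%). The median difference of 0.74 became -0.05 once a trend with gene length was taken out of each library. Ndufa3, an accessory subunit of complex I, was at 57.3 and 48.0 CPM in the KI brains and at 146, 119, 100, 101 and 158 CPM in the WT brains, while the livers overlapped at 34.2 to 41.9 CPM in all 7 mice (difference 1.27 ± 0.22, adjusted p = 0.0966). With the length trend taken out its difference was 0.18 (adjusted p = 0.71), and 0.27 with WT mouse 5 also left out (adjusted p = 0.30). Uqcrb of complex III was at 34.6 and 27.5 CPM against 59.6 to 107 CPM in the brain and at 39.5 and 32.6 CPM against 30.1 to 36.0 CPM in the liver (difference 1.51 ± 0.26, adjusted p = 0.0966).

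The genes of the cytosolic ribosome had a negative median in the KI brain and a positive one in the KI liver. The median effect over 78 genes was -0.85 in the brain and 0.18 in the liver, and 64 of the 78 were below 0 in the brain and above 0 in the liver, a combination found in 27.4% of all genes. Both KI livers lay above every WT liver in 34 of them (12.4% of all genes). The difference was called for 8 (background 1.11% with the liver above the brain), among them Rpl7, Rpl23, Rpl32, Rpl37a, Rpl39, Rps7 and Rps20. Rpl23 was at 65.1 and 52.0 CPM in the KI brains against 88.6 to 152 CPM in the WT brains, and at 114 and 99.9 CPM in the KI livers against 76.4 to 91.6 CPM in the WT livers. Its difference of 1.35 became 0.75 with the length trend taken out (adjusted p = 0.28). Ribosomal protein genes have many processed pseudogenes, and reads that matched more than 1 place were left out of the counts, so their levels are uncertain.

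For other protein-making and RNA-processing machines the calls are again to be read against 1.11% of all genes. Short genes were called more often: 104 of 2642 genes in the shortest of 5 length groups, up to 1770 bases, had the liver above the brain. Mitochondrial ribosomal proteins had a median of -0.63 in the brain and 0.05 in the liver over 76 genes, with 8 differences called. Among them Mrpl33 was at 28.1 and 26.5 CPM in the KI brains against 47.2 to 98.3 CPM, and at 26.6 and 27.1 CPM in the KI livers against 18.4 to 22.0 CPM (difference 1.59 ± 0.30, adjusted p = 0.0966). The Sm and LSm proteins, which form the core of the spliceosomal particles, had medians of -0.79 and 0.09 over 20 genes with 3 called (Snrpe, Lsm3, Lsm8). The chaperonin CCT and its partner prefoldin had medians of -0.35 and -0.00 over 14 genes with 3 called (Pfdn1, Pfdn4, Vbp1). Constitutive proteasome subunits had medians of -0.56 and 0.04 over 31 genes, with Psma1 alone called. Subunits of RNA polymerase II stood at -0.72 and 0.09 over 12 genes, with none called, and translation factors at -0.32 and -0.02 over 33 genes, with none called. Cytosolic aminoacyl-tRNA synthetases, whose transcripts are longer, stood at -0.07 and -0.10 over 20 genes, with none called. Of the brain-sided genes outside these lists, Snhg8, a long noncoding RNA, and Med21, a subunit of the Mediator complex, differed by 1.67 ± 0.24 and 1.52 ± 0.27 (adjusted p = 0.0913 and 0.0966).

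**Figure D3:**
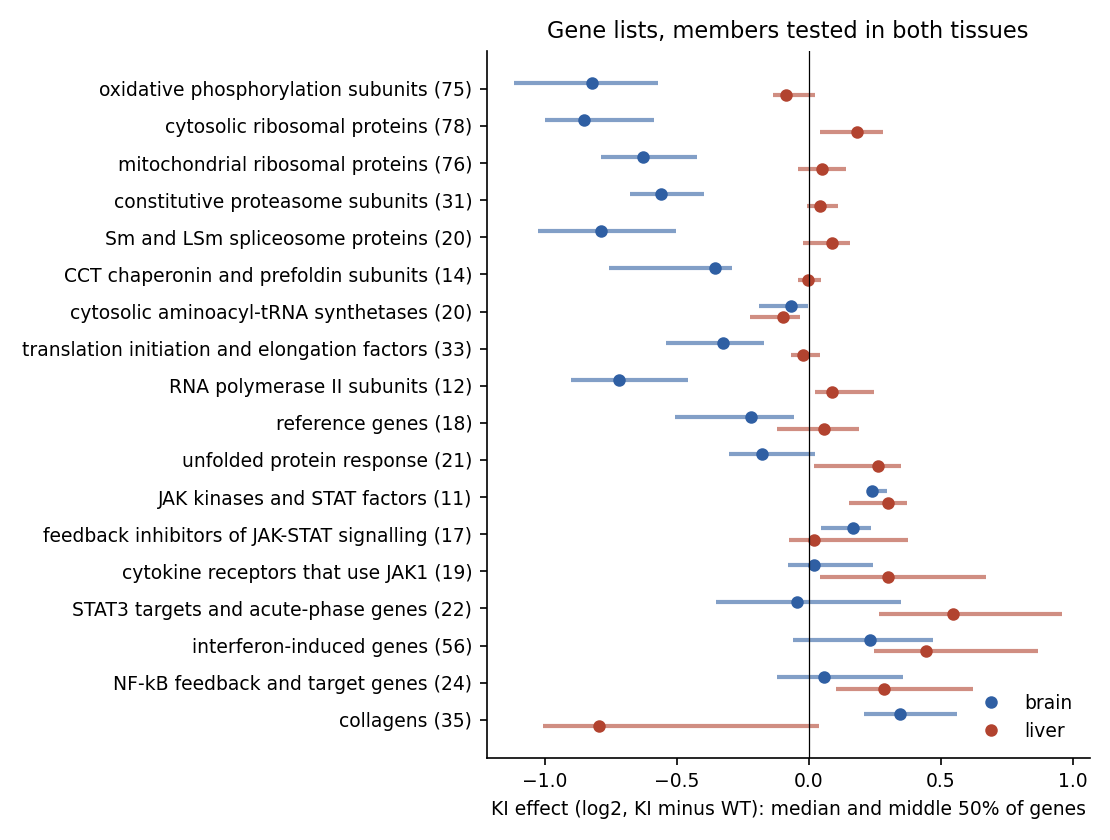
Median KI effect (point) and middle 50% of genes (bar) for each gene list in the brain (blue) and the liver (red), with the number of genes tested in both tissues in brackets; the x axis is log2 KI minus WT. The housekeeping lists at the top lie left of 0 in the brain and near 0 in the liver, except for the aminoacyl-tRNA synthetases (with a gene-length offset the difference of the respiratory chain list turned to -0.05), and the medians of the cytokine-response lists lie right of 0 in the liver, that of the feedback inhibitors only at 0.02 with a bar that crosses 0.

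Genes often used to normalise such measurements were not alike. Of 18 common reference genes 14 had a negative effect in the brain and 7 in the liver, with medians of -0.22 and 0.06. Only B2m was called for the difference (0.93 ± 0.20, adjusted p = 0.0966), which fell to 0.20 with the gene-length trend taken out (adjusted p = 0.78). B2m, the light chain of the MHC class I molecules, is also an interferon-induced gene, and it stood at 839 and 807 CPM in the KI livers against 533 to 640 CPM, and at 60.7 and 55.0 CPM in the KI brains against 60.3 to 103 CPM, so the brains overlapped. Its liver effect of 0.44 ± 0.10 was called (adjusted p = 0.0511), but not with Y-linked expression as a covariate (adjusted p = 0.12) or with the number shared by KI and WT mice as a block (adjusted p = 0.17). The other reference genes were not called in either tissue or for the difference. Rpl13a differed by 1.11 ± 0.35, Ywhaz by 0.95 ± 0.40, Rplp0 by 0.66 ± 0.23 and Hprt by 0.48 ± 0.15, with adjusted p-values of 0.19, 0.29, 0.21 and 0.19. On the other side Polr2a differed by -0.51 ± 0.20 (adjusted p = 0.25). Values within 0.35 of 0 were found for Actb, Tbp, Gusb, Tfrc, Sdha, Eef2 and Tubb5. Gapdh and Ppia, at 1.17 to 12.8 CPM and 0.375 to 2.11 CPM, and Pgk1, at 0.871 to 2.56 CPM, were low for such genes; reads that matched several places were not counted.

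Transcript length moved with these differences. When the genes were split into 5 groups of like size by the length of their longest annotated transcript, the median brain effect ran from -0.42 in the shortest group through -0.13, -0.00 and 0.10 to 0.21 in the longest. The median liver effect ran the other way, from 0.07 through 0.02, -0.03 and -0.06 to -0.13. Of the called genes with a known length, 107 lay in the shortest group of 2642 genes, 104 of them with the liver above the brain. The median length was 1050 bases for the called genes with the liver above the brain, 4276.5 bases for those with the liver below it, and 3054 bases for all genes tested. The housekeeping lists with low values in the KI brain had median lengths of 860 bases (cytosolic ribosome) to 2425 bases (translation factors), and the aminoacyl-tRNA synthetases 2936 bases.

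**Figure D4:**
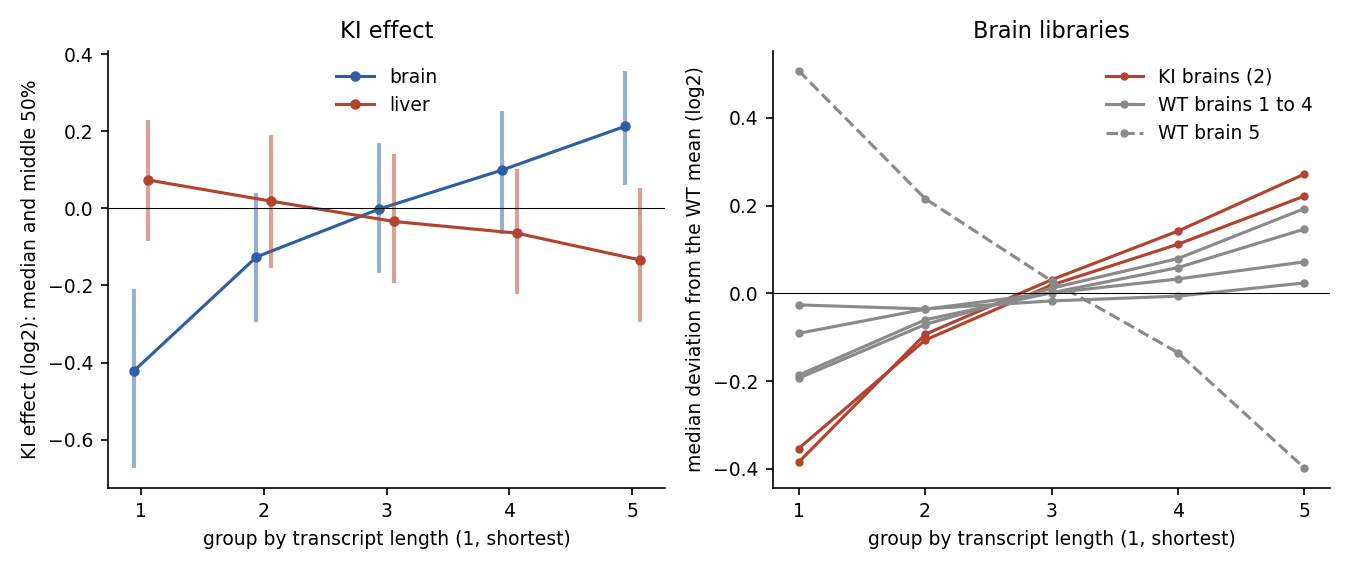
Left, median KI effect and middle 50% of genes in each of 5 groups by transcript length (1, shortest) for the brain (blue) and the liver (red); right, median deviation of each brain library from the WT mean in the same groups, in log2 units. The KI brains fall to -0.35 and -0.38 in the shortest group and WT brain 5 (dashed) rises to 0.51 there.

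The same slope separated single brain libraries. In the shortest group the median deviation from the WT mean was -0.35 and -0.38 in the KI brains, -0.03, -0.09, -0.19 and -0.19 in WT brains 1 to 4, and 0.51 in WT brain 5. WT brain 5 thus stood apart from the other WT brains by more than the KI brains did. The share of reads that matched more than 1 place was also lower in the KI brains, at 18% and 17.1%, than in the WT brains, at 20.5% to 24.0%. In the liver the KI libraries (25.3% and 24.0%) lay within or near the WT range of 23.1% to 25.4%. With the length trend of each library taken out as an offset, 13 differences were called (10 with the liver above the brain and 3 below), and 1 gene was counted as opposite in place of 59. Of the 39 named genes called, 7 were still called with it, namely Car4, Fgf23, Magel2, Rgs4, BC048546, Snhg8 and Il4ra. Car4 and Magel2 had entered the liver test through the KI libraries alone. Lengths were those of protein-coding transcripts, known for 13199 of the 13892 genes tested, and genes without one got no offset. Snhg8 is a noncoding RNA.

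With that offset no member of the 9 housekeeping lists was called for the difference, and the median differences of most lists shrank. The respiratory chain list went from 0.74 to -0.05, the cytosolic ribosome from 0.93 to 0.23, the mitochondrial ribosome from 0.64 to 0.14, the Sm and LSm proteins from 0.89 to 0.14 and RNA polymerase II from 0.80 to 0.25. The respiratory chain was the only housekeeping list that changed sign under it. With the offset and WT mouse 5 left out, an alternative chosen after seeing the data, 235 differences were called, of which 103 were among the 198, and the respiratory chain list stood at 0.04. Without WT mouse 5 and with no offset that list stood at 0.62 with 39 of its genes called. The part of transcript length, of the share of reads matching several places and of WT brain 5 in the differences between KI and WT mice was not tested.

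**Figure D5:**
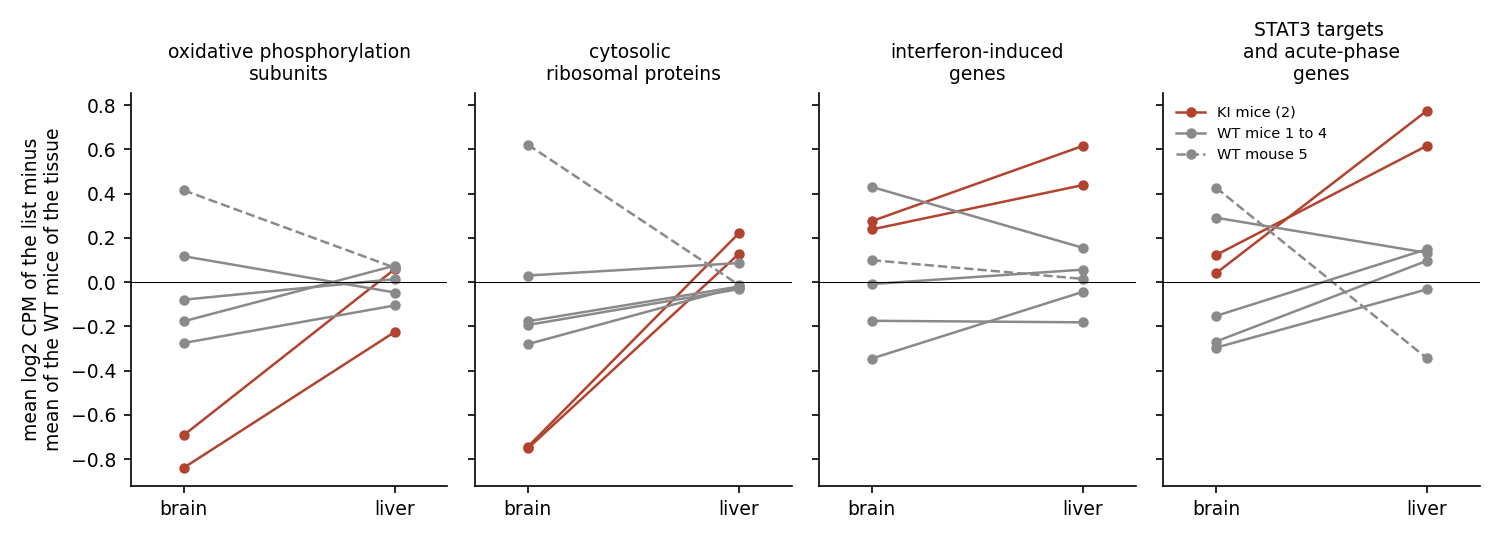
Mean log2 CPM of 4 gene lists in the brain and the liver of each mouse, as the deviation from the mean of the WT mice of that tissue; red, KI mice, grey, WT mice, dashed, WT mouse 5. For the respiratory chain the KI brains lie at -0.69 and -0.84 and WT brain 5 at 0.42, and for the STAT3 and acute-phase list the KI livers lie at 0.78 and 0.62, above all WT livers.

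The cytokine-response lists had calls for the KI effect in the liver and few for the difference between tissues. For the difference 4 of the 6 lists had 1 member called, of 19 to 56 tested in both tissues, and the other 2 none. The background was 1.43% of all genes, so at these sizes 1 call or none says little about a list. Of the acute-phase genes and other STAT3 targets, 37 were tested in the liver, 9 were called higher (background 3.89%) and 0 lower, with a median of 0.50. The 22 expressed in both tissues had a median of -0.04 in the brain and 0.55 in the liver. Lrg1, a leucine-rich acute-phase glycoprotein, was at 278 and 277 CPM in the KI livers and at 71.6 to 105 CPM in the WT livers (1.62 ± 0.13, adjusted p = 0.000759), and was too low in the brain to test, at no more than 0.279 CPM. Serpina3n, an antiprotease induced by inflammation in both liver and astrocytes, was at 1491 and 1222 CPM against 545 to 710 CPM in the liver and at 7.28 and 8.16 CPM against 3.19 to 6.57 CPM in the brain. Both KI mice exceeded every WT mouse in both tissues, with effects of 1.13 ± 0.12 and 0.54 ± 0.29, and the difference of 0.56 ± 0.31 was not called (adjusted p = 0.40). The only member of this list called for the difference was Fgl1, a hepatocyte-secreted protein (2.34, named after its value was seen, and tested in the brain through the WT libraries alone). Lcn2, an iron-trapping acute-phase protein, gave 443 and 525 CPM against 258 to 412 CPM in the liver (adjusted p = 0.12), and Saa3 was at 14 and 2.76 CPM against 3.00 to 10.9 CPM.

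Socs3, the STAT3-induced inhibitor of the receptor gp130, rose in the liver. The KI livers held 75.7 and 82.6 CPM and the WT livers 26.2, 20.3, 13.7, 23.8 and 9.02 CPM, so every WT liver was below both KI livers. In the brain the KI mice were at 8.06 and 8.85 CPM and the WT mice at 7.54, 7.36, 3.87, 5.54 and 7.74 CPM. The liver effect was 2.09 ± 0.31 (adjusted p = 0.012) and the brain effect 0.40 ± 0.29 (adjusted p = 0.68). The difference of 1.73 ± 0.45 missed the level for a call (adjusted p = 0.13), so a larger effect in the liver was not shown for Socs3. Without WT mouse 5, where 1459 genes were called, the difference was 1.425 (adjusted p = 0.0307). With the gene-length trend taken out it was 1.65 (adjusted p = 0.24). Socs1 gave 3.83 and 3.95 CPM against 1.60 to 3.10 CPM in the liver (adjusted p = 0.20). Socs2 and Cish, which answer mainly to STAT5, had liver effects of 0.06 and -0.12. Of 17 feedback inhibitors 3 were called higher in the liver (Socs3, Ptpn1, Usp18; background 3.89%) and none for the difference (background 1.43%).

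The bases upstream of Socs3 and Fgf23 are shown because both genes rose in the KI liver and both windows hold the letters TTCNNNGAA, the spacing bound by STAT dimers. They are the 250 bases before the annotated start in RefSeq (build GRCm38.p6, each on the strand of its gene), with the match in capitals:
Socs3, chr11:117969367-117969616, minus strand: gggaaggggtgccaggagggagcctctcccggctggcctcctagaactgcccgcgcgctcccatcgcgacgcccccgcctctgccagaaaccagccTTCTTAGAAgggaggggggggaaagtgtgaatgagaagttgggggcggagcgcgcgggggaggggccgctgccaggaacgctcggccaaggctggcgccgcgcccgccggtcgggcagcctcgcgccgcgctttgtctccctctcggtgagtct
Fgf23, chr6:127072652-127072901, plus strand: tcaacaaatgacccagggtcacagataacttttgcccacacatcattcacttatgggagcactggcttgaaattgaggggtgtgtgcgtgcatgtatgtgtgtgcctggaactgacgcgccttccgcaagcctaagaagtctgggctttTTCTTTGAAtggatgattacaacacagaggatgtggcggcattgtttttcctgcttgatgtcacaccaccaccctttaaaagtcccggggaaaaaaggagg

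The motif reads the same on both strands, so 1 search covers them. It was found in the 250 upstream bases of 8.13% of the 27025 genes in the table and of 7.225% of the 10478 matched genes tested in both tissues. Among the matched genes it was found in 43 of 435 called higher in the liver (9.885%), in 5 of 23 liver-sided genes higher in the KI liver, in 3 of 62 brain-sided genes lower in the KI brain and in 2 of 30 opposite genes lower in the KI brain. Of other named genes that rose in the KI liver, Car4, Rgs4, Il4ra, Lrg1 and Gbp2 had no match. Irf1, Icam1 and Rplp0, which were not called in the liver, had a match. These are descriptions of letters in a window and not of binding.

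Among the receptors that signal through JAK1, Il4ra, the interleukin 4 receptor alpha chain and itself a STAT target, was the member called for the difference. It was at 117 CPM in both KI livers and at 51.3, 54.4, 49.98, 65.7 and 46.4 CPM in the WT livers. In the brain it was at 12.1 and 11.96 CPM in the KI mice and at 9.32, 10.7, 10.9, 11.0 and 7.94 CPM in the WT mice. The KI mice were above all WT mice in both tissues, by 1.13 ± 0.12 in the liver (adjusted p = 0.00365) and by 0.27 ± 0.20 in the brain (adjusted p = 0.67), and the difference was 0.85 ± 0.17 (adjusted p = 0.0966). It was called in 9 of the 20 alternatives, among them the length offset (1.08, adjusted p = 0.0715), and lost in the others, among them the GC offset (adjusted p = 0.11), the Y-linked covariate (adjusted p = 0.25) and the removal of any mouse but WT 5. Of the 21 receptors tested in the liver 5 were called higher (Il4ra, Il13ra1, Il2rg, Il7r, Ifngr2), against 3.89% of all genes. Il6st, which encodes gp130, was at 211 and 266 CPM against 82.6 to 195 CPM in the liver and at 76.0 and 82.5 CPM against 33.1 to 77.4 CPM in the brain. Il6ra was at 48.1 and 51.4 CPM against 42.9 to 62.0 CPM in the liver and at 1.87 and 2.58 CPM against 0.279 to 1.39 CPM in the brain, and Osmr had effects of 0.57 and 0.55. None of these 3 was called in either tissue or for the difference.

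The kinases and STAT factors had positive medians in both tissues. Over 11 genes they were 0.24 in the brain and 0.30 in the liver, with 10 of 11 above 0 in each. With the gene-length offset the brain median fell to 0.07 and the liver median was 0.36, and the median difference went from 0.07 to 0.28, in a list with a median length of 4611 bases. Stat3 was at 186 and 190 CPM against 131 to 152 CPM in the liver and at 60.9 and 68.3 CPM against 47.3 to 54.5 CPM in the brain, with no overlap in either tissue. Its liver effect of 0.43 ± 0.09 was called (adjusted p = 0.0377), its brain effect of 0.33 ± 0.12 was not (adjusted p = 0.41), and the difference was 0.10 ± 0.15 (adjusted p = 0.75). Jak3 was the other member called higher in the liver (background 3.89%).

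Interferon-induced genes had the highest number of liver calls among the gene lists used. Of 59 tested there, 27 were called higher (background 3.89%) and 0 lower, with a median of 0.45. The 56 expressed in both tissues had a median of 0.23 in the brain and 0.44 in the liver. Ifit1, which binds viral RNA, was at 40.6 and 37.2 CPM in the KI livers and at 15.1 to 21.3 CPM in the WT livers, and at 1.92 and 2.15 CPM in the KI brains within the WT range of 0.754 to 3.37 CPM. Isg15, a ubiquitin-like modifier, was at 175 and 193 CPM against 75.2 to 115 CPM in the liver and at 3.32 and 3.25 CPM within 2.38 to 6.71 CPM in the brain. Gbp2, a guanylate-binding protein induced by interferon gamma, rose in the liver from 10.9 to 14.2 CPM in the WT mice to 23.0 and 25.2 CPM in the KI mice (0.97 ± 0.13, adjusted p = 0.00849). In the brain Gbp2 was at 2.20 and 2.12 CPM against 0.636 to 1.59 CPM (1.12 ± 0.37, adjusted p = 0.37), and its difference was -0.20 ± 0.34. B2m was the only member called for the difference. Irf1 had effects of -0.08 in the liver and 0.53 in the brain, neither called.

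Of the NF-kB feedback and target genes 31 were tested in the liver and 5 were called higher against 3.89% of all genes (Sele, Selp, Cxcl1, Il6 and Tnfrsf9), with Tnfrsf9, a costimulatory receptor of lymphocytes, also called for the difference (6.21, named after its value was seen). Nfkbia, the inhibitor that NF-kB induces against itself, was at 72.6 and 72.8 CPM against 32.8 to 64.0 CPM in the liver and at 25.1 and 26.8 CPM against 23.9 to 28.6 CPM in the brain (difference 0.71 ± 0.29, adjusted p = 0.28). Bcl3, Cebpd, Tnfaip3 and Icam1 were not called in either tissue or for the difference. Macrophage markers were higher in the KI livers too, with a summed level of 1319 and 1594 CPM against 871.2 to 1200 CPM and 6 of 14 called higher (background 3.89%), as were those of B-lineage cells (151.2 and 161.4 CPM against 104.8 to 133.1 CPM) and of T and NK cells (42.14 and 43.68 CPM against 20.12 to 29.42 CPM). The part of these cells in the liver effects of the cytokine-response genes was not tested.

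Other programmes gave few or no calls for the difference. Collagens leaned apart, with a median of 0.35 in the brain and -0.80 in the liver over 35 genes and only Col27a1 called (-1.20). By mouse they overlapped. The mean over the list, as a deviation from the WT mean, was 0.42 and 0.585 in the KI brains against -0.49 to 0.61 in the WT brains, and -0.41 and -0.62 in the KI livers against -0.54 to 0.60 in the WT livers. Fibroblast and meningeal markers had medians on the same sides (0.22 and -0.57 over 9 genes), and their part in the collagen values was not tested. Unfolded protein response genes had medians of -0.18 and 0.26 over 21 genes, with 6 called higher in the liver (background 3.89%) and none for the difference. No difference was called among the glycolysis, cholesterol synthesis, cell cycle, heat shock, hypoxia, circadian clock and immediate early genes or among genes of the fasting switch at birth, whose median differences ran from -0.27 for hypoxia to 0.24 for the immediate early genes. Of these, the cell cycle genes were below 0 in the liver in 30 of 30 (53.8% of all genes) with 1 called, Mki67.

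Genes expressed in a single tissue cannot show a difference of effects and were counted apart. Of 1074 genes tested in the liver alone, 100 were called higher and 33 lower, against 3.89% and 1.68% of all genes tested in the liver. How many of them passed the filter on low counts through the KI or the WT libraries alone was not counted. Their numbers are thus a description. Of 2430 tested in the brain alone none was called by edgeR.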

How the data were processed

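RNA of brain and liver from the mice was sequenced by the authors as paired-end reads on a NovaSeq instrument, after TruSeq library preparation. Alignment, after adapter trimming, was to mm9 by TopHat2. The deposited counts per gene are raw whole numbers (24391 gene symbols and 5 summary lines per file). The submitters' processing notes also name HTSeq and DESeq, with no version, and strand handling was not given in the sources used here. Summary lines stayed out of library sizes; 80.5% to 87.6% of uniquely aligned reads lay on genes.

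Counts were tested with edgeR 4.0.16 (quasi-likelihood, TMM within each tissue, filterByExpr, Benjamini-Hochberg, level 0.1) in R 4.3.3. The KI effect was fitted per tissue on 7 libraries. Its difference, liver minus brain, was fitted on 14 libraries with the mouse as a block, for genes passing the filter in both tissues. The pairing of brain and liver comes from genotype and number in the titles. Deviations of a mouse's brain and liver from their group means correlated at 0.0453 to 0.1552 across genes in the WT mice, and the Y-linked genes matched in all 7 mice. DESeq2 1.42.0 and limma 3.58.1 gave alternatives. CPM are counts scaled to the TMM-adjusted library size. SE are from the fits. Nothing says that the samples of a group came from separate litters, and p-values measure the spread between these animals. Counts were also simulated for 13710 genes, of which 200 were changed. On these counts the test of the difference recovered 10% of 2-fold and 84% of 4-fold changes, with 14 false calls. Whether these rates hold for the real libraries, which differ in their trend with gene length, was not tested.

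Named genes were the called differences with a mean of at least 1 CPM in each tissue, both KI mice outside the WT range and no predicted gene model (the 6 or 4 with the largest difference of each pattern), up to 2 called members per housekeeping list, the reference genes and a set of JAK-STAT genes. A few genes that this rule names are not reported here. The members and lists were chosen with earlier results of these data known. Gene lengths and positions came from the GENCODE annotation of NCBIM37, promoters from RefSeq. Skin libraries were not used here.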

Additional observations from a re-analysis of the deposited data

Results flagged for a closer look

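The test of the difference between tissues flagged the 39 named genes that it called, given here as the liver effect minus the brain effect on the log2 scale. For genes lower in the KI brain and higher in the KI liver the difference was 2.73 for S100a9, 2.61 for Dnajc12, 2.36 for BC048546, 1.98 for Snord104, 1.95 for Rpl39, 1.83 for Tmsb4x, 1.59 for Mrpl33, 1.35 for Rpl23 and 0.931 for B2m. For genes of the reverse pattern it was -1.91 for Wnk2, -1.44 for Phyhip, -1.43 for Igsf3, -1.36 for Slc16a10, -1.21 for Sox4 and -1.18 for Lrp3. Liver-sided genes gave 9.08 for Car4, 8.48 for Fgf23, 7.05 for Magel2, 5.13 for Rgs4, 4.09 for Rtl1, 3.6 for Tubb3, 0.852 for Il4ra, -2.22 for Mecom, -3.25 for Gja5, -4.08 for Adamts16 and -4.43 for Extl1. Brain-sided genes gave 1.70 for Pfdn4, 1.67 for Snhg8, 1.57 for Snrpe, 1.52 for both Mrps18c and Med21, 1.51 for Uqcrb, 1.27 for Ndufa3, 1.17 for Pfdn1, 1.11 for Lsm8, 1.01 for Mrpl42, 0.975 for Psma1, -0.893 for Abca8a and -1.08 for Loxl2.

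A WT mouse far from the other 4 was found in 9 of 126 groups of WT values examined; chance alone flags about 1 in 20. The ratio given is the gap to the nearest other mouse over the whole range. For liver minus brain log2 CPM these were WT 5 for Sox4 (ratio 0.757, at -2.93 against -3.90 to -3.67), WT 3 for Fgf23 (0.722, at 0.597 against -2.36 to -1.54), WT 3 for Rgs4 (0.741, at -6.56 against -8.47 to -7.98) and WT 4 for Tfrc (0.727, at 1.42 against 2.08 to 2.32). For the mean of a gene list in the liver they were WT 1 for the cytosolic ribosome (0.837, at 0.086 against -0.0319 to -0.0127) and WT 4 for the feedback inhibitors of JAK-STAT signalling (0.798, at 0.105 against -0.0404 to -0.0112). In the brain they were WT 5 for the unfolded protein response (0.775, at 0.261 against -0.109 to -0.0258), WT 2 for the NF-kB genes (0.821, at 0.216 against -0.0764 to -0.0239) and WT 4 for the fasting switch (0.724, at -0.139 against 0.00693 to 0.0624).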

How the results depend on the processing

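With 2 KI mice the count of differences depended on most choices. Against 198 called differences and 59 opposite genes, a level of 0.05 gave 7 and 1, DESeq2's Wald test 1051 and 186, a filter over the 14 libraries 9 and 3, no filter 21 and 5, Y-linked expression as a covariate 4 and 0, a gene-length offset 13 and 1, and a GC offset 51 and 19. A fit of all 14 libraries gave 570 brain calls, 245 liver calls and 39 opposite genes. Against 833 liver calls, the level of 0.05 gave 383, the Wald test 1489 and the Y-linked covariate 379. Brain calls, 0 by the fit reported, were 604 by the Wald test and 678 with the length offset and WT 5 left out.

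Without the mouse as a replicate block, 549 differences were called with 135 opposite genes. A replicate block on the number shared by KI and WT mice gave 1330 differences, 322 opposite genes and 2165 brain calls. That number does not pair mice: deviations of same-numbered KI and WT libraries correlated at 0.04 and -0.08 in the brain and at -0.02 and -0.08 in the liver. With each mouse left out in turn, the counts ran from 0 to 1459 for the differences, from 0 to 294 for opposite genes, from 0 to 1698 for the brain (other than 0 only without WT 5) and from 56 to 1290 for the liver.

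Differences that changed sign belonged to genes not called. With the number block these were Actb (-0.16), Tubb5 (-0.18), Osmr (-0.11), Bcl3 (-0.27), Eef2 (0.085) and Icam1 (0.21). Osmr stood at -0.00045 with the GC offset, Icam1 at 0.026 with no replicate block and Tfrc at 0.11 with the length offset. With that offset and WT 5 left out, Actb stood at -0.020, Tubb5 at -0.11 and Tfrc at 0.10. With each mouse left out in turn, Tubb5 ran from -0.066 to 0.14, Icam1 from -0.26 to 0.13, Osmr from -0.11 to 0.21 and Eef2 from -0.18 to 0.0034. For the other alternatives (TMM over 14 libraries, DESeq2's size factors, limma on each mouse's difference) the counts stayed within 1.5 times.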
